A study of Homo sapiens with 12 samples.

Results

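The E2F and RB families were followed as 10 genes, taken by symbol from a table of 62700 genes: the activators E2F1, E2F2 and E2F3, the repressors E2F4 and E2F5, the atypical repressors E2F7 and E2F8, and the pocket proteins RB1, RBL1 (p107) and RBL2 (p130). Their transcripts were measured by poly(A) RNA sequencing in HCT116 TIM-mAID cells, a human colorectal carcinoma line in which CRISPR was used to knock an auxin-inducible degron tag into TIMELESS, a protein of the replication fork. All 12 libraries came from this tagged line at 40 h, so the DMSO cells carry the tag too. The 4 groups of 3 biological replicates received DMSO, 5-Ph-IAA at 1 µM (an auxin analogue that triggers degradation of the tagged protein), ceralasertib at 1 µM (an inhibitor of the checkpoint kinase ATR, labelled ATRi), or 5-Ph-IAA and ATRi together. The series is about the routes by which cells die when replication fails as a whole, a state called replication catastrophe.

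E2F transcription factors turn the genes of DNA replication and cell division on or off. Pocket proteins hold them in check: RB1 binds mostly the activator E2Fs, while RBL1 and RBL2 join E2F4 or E2F5 and the MuvB proteins in DREAM, a repressor complex that shuts cell cycle genes when p53 and its target CDKN1A (p21) are active. Cyclin-dependent kinases release this hold by phosphorylating the pocket proteins. E2F7 and E2F8 repress without a pocket protein or a DP partner, and several E2F genes are themselves E2F targets, so the family regulates its own levels.

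Because E2F genes are known to act on each other's promoters, the bases before the start of 6 members are shown first, as RefSeq (GRCh38.p14) gives them. Each line holds the 100 bases just before the annotated start, on the gene's own strand, with capitals for matches to 2 sets of letters. The E2F-type set held 4 forms, read on either strand: the form TTTCGCG, its relative TTTCCCG, then the form TTTGGCG and its relative TTTGCCG. The set named for the cell cycle homology region (CHR-type) was the letters TTTGAA or the palindrome TTTAAA, again on either strand. TTTAAA is its own reverse complement, so each such match counts on both strands, and matches of either set may overlap each other. The search covered 10 entries for 8 of the 10 members. The RB1 entry (window chr13:48476200-48476499) lay inside the gene, whose annotated start is at 48303751. The bases before the RB1 start were therefore not searched. E2F5 and E2F8 were not searched, so whether they hold such letters was not tested.
E2F1, chr20:33686386-33686485, minus strand: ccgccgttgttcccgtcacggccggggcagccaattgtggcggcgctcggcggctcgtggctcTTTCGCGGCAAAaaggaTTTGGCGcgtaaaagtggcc
E2F2, chr1:23531234-23531333, minus strand: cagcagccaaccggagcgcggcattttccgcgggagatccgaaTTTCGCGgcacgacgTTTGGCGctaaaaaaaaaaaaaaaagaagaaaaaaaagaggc
E2F3, chr6:20401779-20401878, plus strand: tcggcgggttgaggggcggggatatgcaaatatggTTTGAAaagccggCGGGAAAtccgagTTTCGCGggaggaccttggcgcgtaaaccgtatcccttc
RBL1, chr20:37095998-37096097, minus strand: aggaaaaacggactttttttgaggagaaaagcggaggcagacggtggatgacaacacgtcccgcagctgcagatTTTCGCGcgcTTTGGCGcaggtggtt
E2F7, chr12:77065570-77065669, minus strand: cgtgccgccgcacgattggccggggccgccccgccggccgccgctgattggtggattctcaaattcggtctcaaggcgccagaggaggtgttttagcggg
RBL2, chr16:53434371-53434470, plus strand: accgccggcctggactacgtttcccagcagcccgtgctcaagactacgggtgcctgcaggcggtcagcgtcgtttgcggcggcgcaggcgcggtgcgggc

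E2F1 held 3 E2F-type matches in its 300-base window, 2 of them overlapping, while E2F2, RBL1 and the first entry of E2F3 held 2 each. Over all 35116 promoter entries of this length, 8.671% held at least 1 E2F-type match and 0.6806% held 2 or more. No E2F-type match was found in the windows of E2F4, E2F7 or RBL2, nor in the second entry of E2F3. E2F3 also held 1 CHR-type match, and the first RBL2 entry held 5 outside the bases shown or after the start. CHR-type letters occurred in 23.99% of all entries. Of the 4 searched members with E2F-type letters, E2F1 and E2F2 fell in the combination against DMSO. RBL1 lay wholly below DMSO without passing (edgeR adjusted p = 0.0524). E2F3 overlapped DMSO and did not pass (edgeR adjusted p = 0.955). RBL2, with CHR-type letters only, fell. A match of letters is a description of the sequence and was not tested as a site.

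The libraries held 27695914 to 34704725 estimated counts, and all 10 members passed the filter on low counts, with 65 counts or more in every library. The share of counts from the mitochondrial genome was 6.63% to 14.9% in DMSO, 6.79% to 13.6% with 5-Ph-IAA, 7.40% to 13.4% with ATRi and 10.7% to 13.9% with both. Levels are given in CPM, a gene's count relative to the size of its library after TMM scaling, which evens out differences in library composition. The degron acts on protein, so TIMELESS RNA does not check its loss: the transcript stood at 30.53 to 67.86 CPM in DMSO and 39.55 to 62.98 CPM with 5-Ph-IAA, and edgeR's quasi-likelihood test gave a log2 change of -0.07 ± 0.29 (SE, adjusted p = 1). In the combination TIMELESS stood at 17.64 to 24.52 CPM. Epithelial markers, which a colorectal line should carry, summed to 4295 to 6385 CPM in DMSO and 9995 to 11440 CPM in the combination, with 7 of 8 detected above the filter. Markers of other cell types were lower: the endothelial list reached at most 2.81 CPM, the fibroblast list summed to 35.74 to 106.5 CPM in DMSO and 43.56 to 69.85 CPM in the combination, and the immune list to 8.39 to 10.24 and 29.56 to 38 CPM. Of these lists 2 of 4, 2 of 5 and 2 of 5 genes passed the filter, and the part of the higher immune sum in the results was not tested. In bulk RNA, fewer cells of a kind (for example in a phase of the cycle) and less RNA per cell cannot be told apart.

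With both agents together, E2F1, E2F2, E2F8 and RBL2 fell against DMSO, RBL1 was lower in every library without passing the test, and E2F3, E2F4, E2F5, E2F7 and RB1 did not pass. By edgeR's test (adjusted p under 0.05 over 18049 genes), 4 of 10 members were lower, where 6.89% of all genes tested were called lower and 13.1% in either direction. The libraries of the combination lay wholly below those of DMSO for 5 of 10 members, against 15.9% of all genes. The median log2 change was -0.47 over the 10 members and -0.02 over all genes tested.

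**Figure D1:**
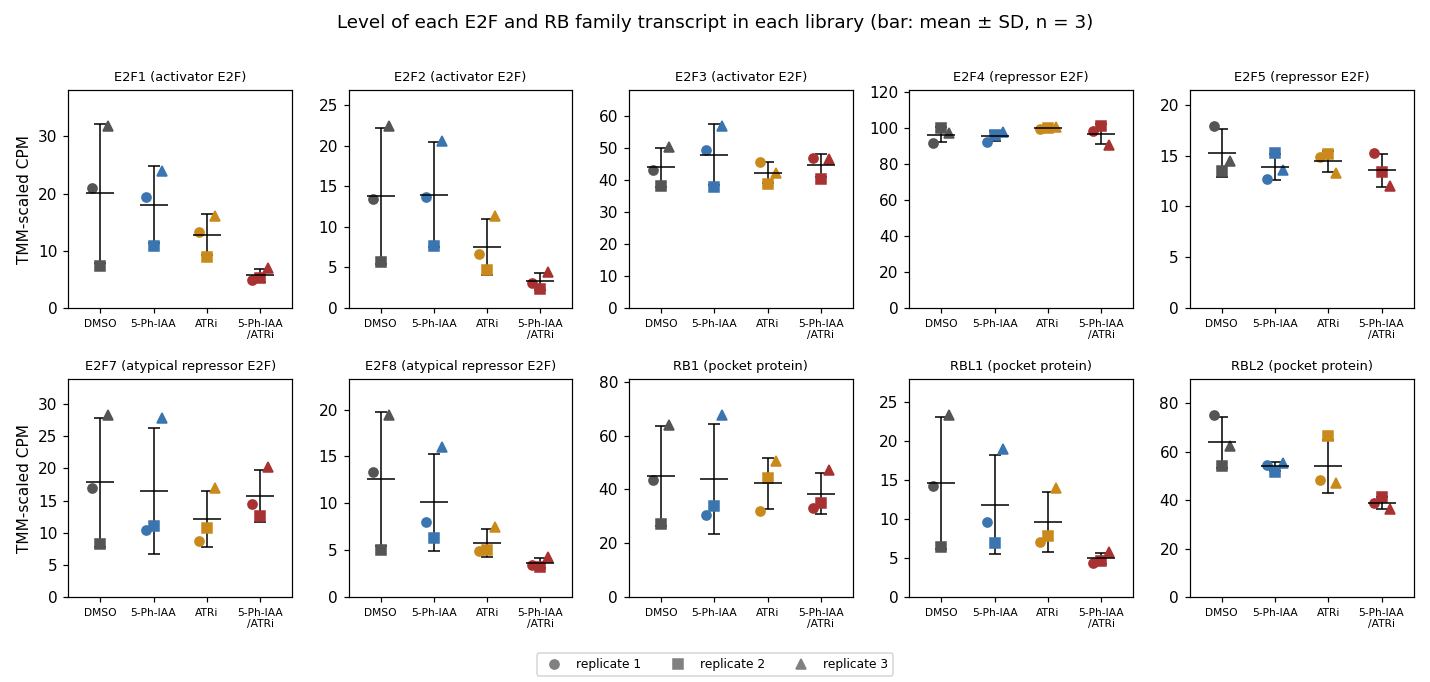
Level of each of the 10 transcripts in each library, as TMM-scaled CPM (y axis), for the 4 groups (x axis). Symbols mark replicates 1 to 3 and bars the mean ± SD (n = 3). E2F1, E2F2, E2F8, RBL1 and RBL2 sit lowest in the 5-Ph-IAA/ATRi libraries, while E2F4 lies between 90.64 and 101 CPM in all 12.

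Levels in the DMSO cells are set out first. Per kilobase of the longest coding transcript, E2F4 was the most abundant member at 46.0 ± 2.06 CPM per kb (SD, n = 3), followed by RBL2 at 13.004 ± 2.14. RB1 (9.36 ± 3.87), E2F3 (9.24 ± 1.31), E2F5 (8.07 ± 1.23) and E2F1 (8.002 ± 4.87) did not differ beyond their spread, nor did E2F8 (3.58 ± 2.05), E2F7 (3.10 ± 1.75), E2F2 (2.66 ± 1.61) and RBL1 (2.57 ± 1.49). In the combination E2F4 stood at 46.2 ± 2.59 CPM per kb and E2F3 at 9.38 ± 0.779, while E2F2 stood at 0.634 ± 0.199, RBL1 at 0.868 ± 0.131 and E2F8 at 1.02 ± 0.157. The spread within DMSO was unequal: the coefficient of variation was 60.9% for E2F1 and 4.48% for E2F4.

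Among the activators, E2F1 and E2F2 fell and E2F3 did not pass the test. E2F1 (ENSG00000101412.13, chromosome 20: 33675477 to 33686385), which drives entry into S phase and can also induce apoptotic genes, stood at 20.94, 7.40 and 31.75 CPM in DMSO replicates 1, 2 and 3. It stood at 19.36, 10.78 and 24.04 CPM with 5-Ph-IAA, at 13.36, 8.98 and 16.11 CPM with ATRi, and at 4.94, 5.16 and 6.96 CPM with both. All 3 combination libraries lay below all 9 others, the nearest being DMSO replicate 2. Against DMSO the combination was 3.53-fold lower (log2 change -1.82 ± 0.46, adjusted p = 0.0245), and against 5-Ph-IAA alone the log2 change was -1.67 ± 0.46 (adjusted p = 0.0446).

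E2F2 (ENSG00000007968.7, chromosome 1: 23505212 to 23531233), a close relative of E2F1, stood at 13.39, 5.71 and 22.39 CPM in DMSO and at 3.11, 2.36 and 4.40 CPM in the combination. With 5-Ph-IAA it measured 13.65, 7.67 and 20.64 CPM, and with ATRi 6.65, 4.64 and 11.28 CPM. As for E2F1, the combination lay below every other library. The log2 change was -2.07 ± 0.52 against DMSO (adjusted p = 0.0237) and -2.09 ± 0.52 against 5-Ph-IAA (adjusted p = 0.0293), the lowest of the 10 members in both comparisons.

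E2F3 (chromosome 6: 20401879 to 20493714), the activator that cells keep through more of the cycle, stood at 43.20, 38.01 and 50.37 CPM in DMSO and at 46.73, 40.26 and 46.58 CPM in the combination. The groups overlapped, and the log2 change was 0.02 ± 0.16 (adjusted p = 0.955). With 5-Ph-IAA it stood at 47.9 ± 9.54 CPM and with ATRi at 42.2 ± 3.33 CPM (SD, n = 3 each). The E2F3 to E2F1 ratio per length was 0.84 to 2.71 in DMSO and 3.53 to 4.99 in the combination, with no overlap. An exact two-sided permutation test of that ratio gave p = 0.1, the smallest that 3 libraries against 3 allow (adjusted p = 0.136 over 15 ratio tests).

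Neither repressor of the DREAM type passed the test. E2F4 (chromosome 16: 67192155 to 67198918), the main E2F of resting cells, stood at 91.61, 99.99 and 97.62 CPM in DMSO and at 98.69, 101.00 and 90.64 CPM in the combination. The log2 change was 0.01 ± 0.09 (adjusted p = 0.98), the smallest in size of any member. E2F5, a close relative that also binds RBL1 and RBL2, stood at 17.88, 13.47 and 14.43 CPM in DMSO and at 15.24, 13.37 and 12 CPM in the combination (log2 change -0.17 ± 0.15, adjusted p = 0.514). The groups overlapped for both genes, and with single agents E2F4 averaged 95.6 ± 2.88 (5-Ph-IAA) and 100.007 ± 0.489 CPM (ATRi). Exons of E2F5 overlap exons of C8orf59 on the opposite strand over 969 bases, so its reads may be shared if strand was not used in counting.

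The atypical repressors, which act late in S phase on genes that E2F1 turned on, gave unlike results: E2F8 fell and E2F7 did not pass. E2F8 (ENSG00000129173.13, chromosome 11: 19224063 to 19241655) stood at 13.36, 5.04 and 19.39 CPM in DMSO, at 7.95, 6.32 and 16.00 CPM with 5-Ph-IAA, at 4.89, 4.98 and 7.48 CPM with ATRi and at 3.36, 3.20 and 4.22 CPM with both. Its combination libraries lay below all others, with a log2 change of -1.81 ± 0.46 against DMSO (adjusted p = 0.0247). E2F7 (chromosome 12: 77021251 to 77065569) stood at 17.01, 8.18 and 28.26 CPM in DMSO, at 10.46, 11.12 and 27.82 CPM with 5-Ph-IAA, at 8.65, 10.78 and 17.01 CPM with ATRi and at 14.42, 12.57 and 20.27 CPM with both. Its groups overlapped throughout and the log2 change was -0.18 ± 0.47 (adjusted p = 0.86).

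The difference between both genes was tested as the ratio of E2F7 to E2F8 within each library. Per length it was 0.78, 0.99 and 0.89 in DMSO, 0.81, 1.08 and 1.07 with 5-Ph-IAA, 1.08, 1.33 and 1.395 with ATRi, and 2.63, 2.41 and 2.94 with both. The combination libraries lay above all others, and their ratio was 2.995-fold that of DMSO (exact two-sided permutation p = 0.1, adjusted p = 0.136). The ratio of E2F4 to E2F1 was 5.22, 16.1 and 3.67 in DMSO and 23.9, 23.4 and 15.6 in the combination. Here DMSO replicate 2 lay inside the range of the combination (exact two-sided permutation p = 0.2, adjusted p = 0.214). The ratios were chosen after the levels had been seen.

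**Figure D2:**
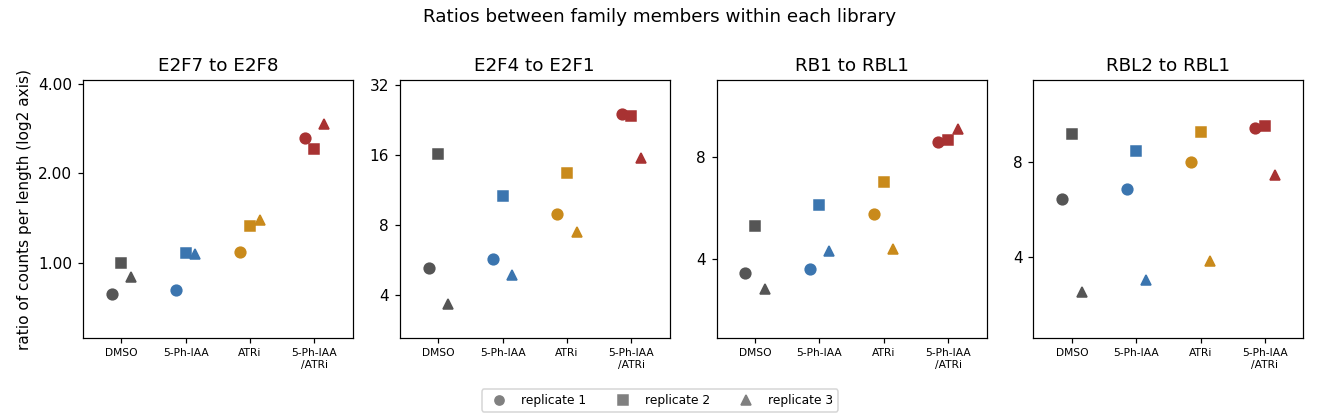
Ratio of 2 members' counts per transcript length within each library (y axis, log2 scale) for the 4 groups (x axis); each symbol is 1 library. The E2F7 to E2F8 and RB1 to RBL1 ratios of the combination lie above all other libraries (2.41 to 2.94 and 8.88 to 9.68), and the E2F4 to E2F1 and RBL2 to RBL1 ratios overlap DMSO.

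Of the pocket proteins, RBL2 fell, RBL1 was lower in every library without passing, and RB1 did not pass. RBL2 (ENSG00000103479.17, chromosome 16: 53434471 to 53491648), the pocket protein most tied to resting cells, stood at 74.97, 54.12 and 62.30 CPM in DMSO and at 38.86, 41.31 and 36.21 CPM in the combination. It measured 54.58, 51.62 and 55.46 CPM with 5-Ph-IAA and 48.33, 66.47 and 46.94 CPM with ATRi, all above the combination. The combination was 1.64-fold lower than DMSO (log2 change -0.72 ± 0.16, adjusted p = 0.0123), the lowest adjusted p of the 10 members. Exons of RBL2 overlap those of AKTIP on the opposite strand over 610 bases, and AKTIP showed a log2 change of -0.42 ± 0.13 (adjusted p = 0.0547), so shared reads cannot be told apart without the strand setting.

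RBL1 (ENSG00000080839.12, chromosome 20: 36996349 to 37095997), the pocket protein of cycling cells and itself an E2F target, stood at 14.23, 6.38 and 23.27 CPM in DMSO and at 4.40, 4.61 and 5.79 CPM in the combination. With 5-Ph-IAA it measured 9.66, 6.90 and 18.96 CPM, and with ATRi 7.01, 7.76 and 13.99 CPM. No combination library reached the lowest of the other groups, yet the log2 change of -1.57 ± 0.48 missed the threshold (adjusted p = 0.0524). Over the 6 omissions of 1 library the log2 change ran from -1.93 to -1.07 and the adjusted p from 0.0129 to 0.171, and it passed in 1 of them, without DMSO replicate 2, the lowest DMSO library.

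RB1 (ENSG00000139687.16, chromosome 13: 48303751 to 48481890), the retinoblastoma protein, stood at 43.55, 27.01 and 64.06 CPM in DMSO and at 32.96, 35.10 and 47.22 CPM in the combination. The log2 change was -0.22 ± 0.35 (adjusted p = 0.748) and the groups overlapped. Per length, RB1 exceeded RBL1 by 3.63, 5.02 and 3.26 times in DMSO and by 8.88, 9.02 and 9.68 times in the combination, again with no overlap (fold of the ratio 2.35, exact two-sided permutation p = 0.1, adjusted p = 0.136). The ratio of RBL2 to RBL1 did overlap DMSO (6.11, 9.83 and 3.10 against 10.2, 10.4 and 7.25).

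Either agent alone moved no member past the threshold. With 5-Ph-IAA, 0 of 10 were called by edgeR (0.00554% of all genes were), 0 had an unadjusted p under 0.05, and log2 changes ran from -0.32 (E2F8) to 0.13 (E2F3). With ATRi, 0 of 10 were called (0.0665% of all genes), and E2F8 alone had an unadjusted p under 0.05 (log2 change -1.12 ± 0.45, unadjusted p = 0.0284 and adjusted p = 0.927 by edgeR). In that comparison 9 of 10 log2 changes were negative (53.0% of all genes), with E2F2 at -0.88 ± 0.50, E2F1 at -0.65 ± 0.45, RBL1 at -0.61 ± 0.46 and E2F7 at -0.55 ± 0.47. The members share the same libraries, so these signs are not independent. For 0 of 10 members did the libraries lie wholly below or above DMSO, against 1.38% and 1.99% of all genes with 5-Ph-IAA and 4.07% and 4.73% with ATRi. DESeq2 and limma-voom also called 0 members in these comparisons.

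**Figure D3:**
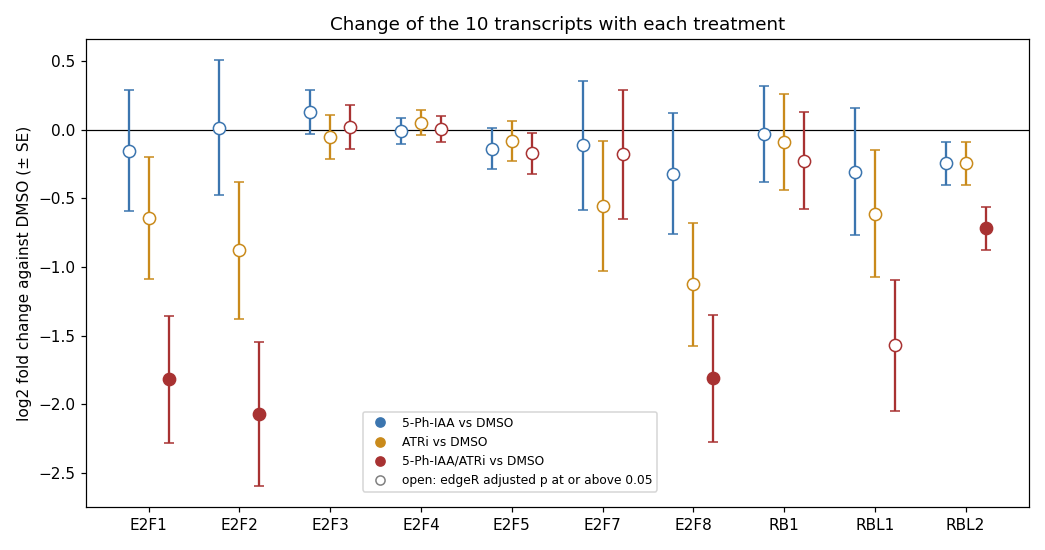
Log2 fold change against DMSO ± SE (y axis) for each member (x axis) with 5-Ph-IAA, ATRi or both, from edgeR; filled circles passed an adjusted p of 0.05. The 4 filled circles are E2F1, E2F2, E2F8 and RBL2 in the combination, and the values for ATRi alone lie between -1.12 and 0.05. The 3 comparisons share the DMSO libraries.

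Against 5-Ph-IAA alone, the combination was lower for 2 of 10 members (E2F1 and E2F2), where 5.04% of all genes were called lower. E2F8 (-1.49 ± 0.46, adjusted p = 0.0672), RBL2 (-0.47 ± 0.16, adjusted p = 0.0885) and RBL1 (-1.26 ± 0.48, adjusted p = 0.132) did not pass, although all 5 genes lay wholly below (14% of all genes did). Against ATRi alone, 0 of 10 members were called (1.88% of all genes were called lower), with 3 at an unadjusted p under 0.05 by edgeR. DESeq2 and limma-voom also called 0, as did edgeR with DESeq2 size factors, with total counts, with no or a stricter count filter, and with each library left out. The remaining edgeR settings did call members. The replicate number as a block called E2F1 and E2F2 lower (adjusted p = 0.0237 and 0.0041), beside 1980 genes. Mitochondrial share as a covariate called E2F7 higher (0.028) and RBL2 lower (0.0492), beside 3188 genes. Fitting only the groups compared called E2F1 lower (0.0292), beside 970 genes. The same 5 members lay wholly below ATRi, as did 14% of all genes, with log2 changes from -1.19 ± 0.52 for E2F2 (adjusted p = 0.272) to -0.47 ± 0.16 for RBL2 (adjusted p = 0.137). E2F7 was the one member with a log2 change above 0.1 in that comparison (0.37 ± 0.47, adjusted p = 0.791).

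The interaction asks whether the change under both agents departs from what adding the single changes would give. It was called for 0 of 10 members (0.0776% of all genes), with 0 at an unadjusted p under 0.05 by edgeR. The estimate was -1.21 ± 0.71 for E2F2 (adjusted p = 0.854), -1.02 ± 0.63 for E2F1 (adjusted p = 0.877) and 0.49 ± 0.67 for E2F7.

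The calls on E2F1, E2F2 and E2F8 did not hold with most single libraries left out. Each lost its call against DMSO when DMSO replicate 1, DMSO replicate 3 or any combination library was left out, with log2 changes over all omissions of -2.21 to -1.32 for E2F1, -2.44 to -1.54 for E2F2 and -2.19 to -1.36 for E2F8. Adjusted p values over the omissions ran from 0.00231 to 0.095, from 0.00632 to 0.0992 and from 0.00333 to 0.0949 in that order. RBL2 lost its call without DMSO replicate 1 or combination replicate 3 (log2 change -0.83 to -0.59, adjusted p 0.00745 to 0.0602). Members called numbered 5 without DMSO replicate 2 and 0 without DMSO replicate 1. Over all genes, 2370 were called with all libraries and 2376 without DMSO replicate 2. With any other library of these groups left out, 1236 to 1701 genes were called. The part of the smaller groups in the lost calls was not tested. Against 5-Ph-IAA alone, E2F1 and E2F2 both lost their call without 5-Ph-IAA replicate 1, 5-Ph-IAA replicate 3 or any combination library (adjusted p up to 0.148 and 0.12).

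Mitochondrial share moved with several members across libraries. DMSO replicate 2, with 14.9% mitochondrial counts, had the lowest DMSO level of E2F1, E2F2, E2F7, E2F8, RB1 and RBL1, and DMSO replicate 3, with 6.63%, the highest. The combination libraries lay at 10.7% to 13.9%, all above DMSO replicates 1 (7.85%) and 3 and below DMSO replicate 2. The groups were thus not matched on this share. Between libraries of the same replicate number, the E2F1 log2 ratio of combination to DMSO was -2.08, -0.52 and -2.19 for replicates 1, 2 and 3. With this share as a covariate, edgeR called 6449 of 18049 genes in the combination against DMSO, where the main test called 2370. The log2 change was then -1.34 for E2F1 (edgeR adjusted p = 0.0117), -1.54 for E2F2 (0.00695) and -1.23 for E2F8 (0.00288). It was -0.99 for RBL1 (0.0104) and -0.68 for RBL2 (0.00433). Each of these log2 changes was smaller in size than in the main test. E2F7 then stood at 0.43 (adjusted p = 0.131) and RB1 at 0.17 (adjusted p = 0.413), both with the sign turned.

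**Figure D4:**
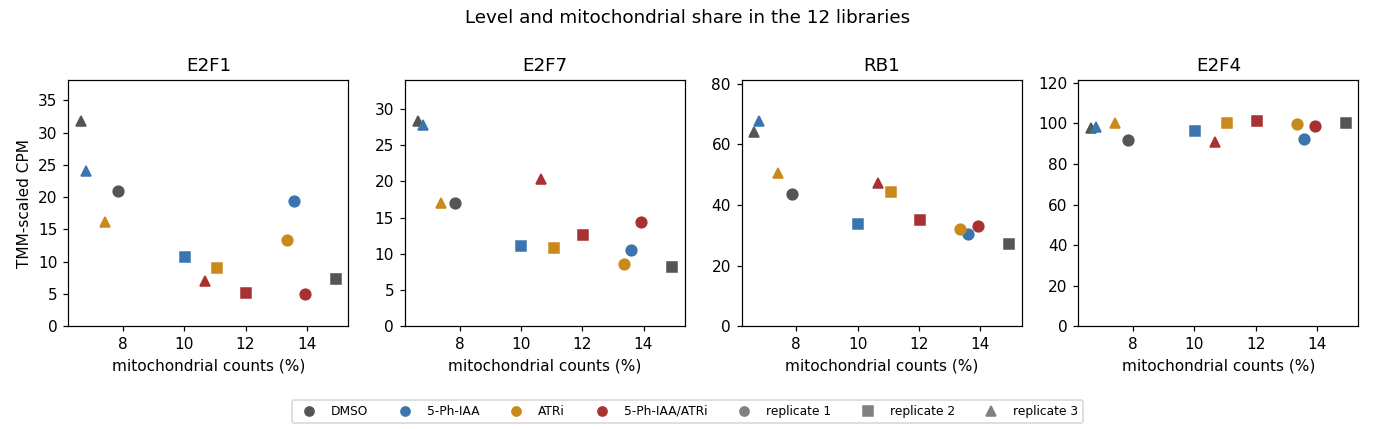
Level (y axis, TMM-scaled CPM) against the share of mitochondrial counts (x axis, percent) in the 12 libraries for E2F1, E2F7, RB1 and E2F4; colours mark groups and symbols replicates. E2F7 and RB1 are highest in the libraries under 7% mitochondrial counts, the combination libraries lie lowest for E2F1 at 10.7% to 13.9%, and E2F4 lies between 90.64 and 101 CPM.

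Genes that act with or below the family were read from 9 lists. The 38 G1/S targets of E2F, which build the replication machinery and its nucleotides, were lower for 20 and higher for 0 in the combination against DMSO, with a median log2 change of -1.44 (all genes -0.02). Of all genes, 6.89% were called lower in this comparison. The methyltransferase EZH2 changed by -0.84 ± 0.14 (adjusted p = 0.00251), the thymidine kinase TK1 by -1.87 ± 0.32 (0.00312) and the helicase subunit CDC45 by -2.28 ± 0.42 (0.00486). All 22 G2/M targets of DREAM were lower, with a median of -2.18. Among them CDC25C, which activates CDK1, changed by -3.06 ± 0.16 (2.65e-06), the mitotic kinase AURKB by -2.82 ± 0.24 (4.6e-05), the kinetochore motor CENPE by -2.22 ± 0.21 (9.31e-05) and the cyclin CCNB2 by -2.38 ± 0.26 (0.00023). With ATRi alone, 0 of these genes passed, the medians were -0.48 and -0.63, and 37 of 38 and 22 of 22 log2 changes were negative. Over all genes with ATRi alone, 0.0665% passed, the median was -0.02 and 53.0% of log2 changes were negative. Against ATRi alone, the combination was lower for 2 G1/S and 13 G2/M genes (1.88% of all genes), and against 5-Ph-IAA alone for 15 and 22 (5.04% of all genes).

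Among the partners of the pocket proteins, 2 of 8 genes of MuvB and its activators, 0 of 2 DP partners and 1 of 9 chromatin factors were called, all lower, beside 6.89% of all genes called lower. Of the 8 genes for MuvB and its activators, 2 were lower and 0 higher (median -0.48): MYBL2 (B-Myb), which turns MuvB into an activator, by -2.26 ± 0.43 (adjusted p = 0.00604), and FOXM1, which follows it in G2, by -2.17 ± 0.42 (adjusted p = 0.0061). The MuvB subunits RBBP4 (-0.58 ± 0.18, adjusted p = 0.0544) and LIN52 (-0.33 ± 0.20, adjusted p = 0.338) did not pass. The DP partners, which E2F1 to E2F5 need to bind DNA, gave 0 calls among 2 tested of 3, with TFDP1 at -0.31 ± 0.30 and TFDP2 at -0.08 ± 0.11. Of 9 chromatin factors known to bind RB, RBBP8 (CtIP), which also starts DNA end resection, was lower (-0.66 ± 0.19, adjusted p = 0.0401), 0 were higher, and RBBP7, HDAC1 and SUV39H1 had adjusted p values of 0.0807, 0.0908 and 0.168.

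Regulators of RB phosphorylation moved in both directions in the combination, where 13.1% of all genes were called in either direction. The CDK inhibitor CDKN1A rose from 217.6 ± 25.24 CPM in DMSO to 435.3 ± 81.81 with 5-Ph-IAA, 757.2 ± 139.9 with ATRi and 2062 ± 44.45 with both (SD, n = 3 each). Its log2 change in the combination was 3.24 ± 0.19 (adjusted p = 6.23e-06), and it passed with ATRi alone (1.80 ± 0.18, adjusted p = 0.00407) but not with 5-Ph-IAA alone (1.00 ± 0.18, adjusted p = 0.532). Of the 7 CDK inhibitors, 1 was higher and 2 were lower in the combination, the latter being CDKN2A (-0.88 ± 0.16, adjusted p = 0.00451) and CDKN2C (-1.53 ± 0.39, adjusted p = 0.0243). Counts per gene do not tell apart the 10 coding transcripts of CDKN2A. CDKN1B (p27) stood at -0.39 ± 0.12 (adjusted p = 0.0525). Of 7 cyclins and kinases tested of 8, cyclin D1 (CCND1) was higher (1.38 ± 0.35, adjusted p = 0.023) and CDK4 lower (-0.47 ± 0.14, adjusted p = 0.049). CDK2, CCNE1 and the other members of that list did not pass.

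**Figure D5:**
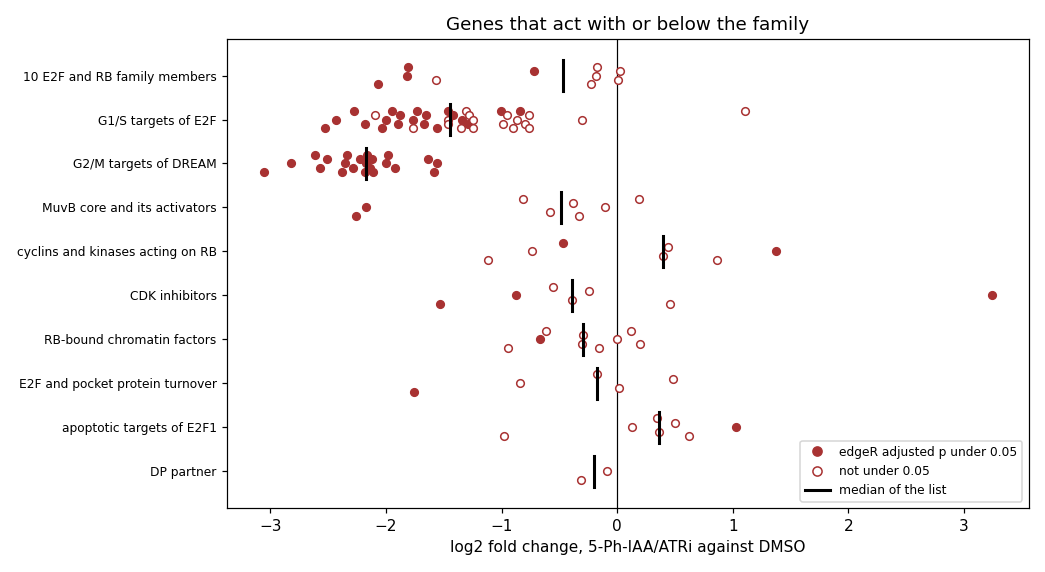
Log2 fold change in the combination against DMSO (x axis) for each tested gene of the family and of 9 related lists (y axis); filled circles passed an edgeR adjusted p of 0.05 and black bars mark medians. All 22 G2/M genes are filled and below 0, 20 of 38 G1/S genes are filled, and CDKN1A lies far to the right at 3.24.

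Of the genes of turnover and of E2F1's apoptotic branch, 1 of 5 and 1 of 7 were called, beside 13.1% of all genes in either direction. CCNF (cyclin F), which marks E2F proteins for destruction, was the 1 of 5 turnover genes to pass (-1.75 ± 0.38, adjusted p = 0.0117), while SKP2, its relative acting on p27, stood at an adjusted p of 0.199. Of 7 apoptotic targets of E2F1, PMAIP1 (NOXA), also a p53 target, was higher (1.03 ± 0.26, adjusted p = 0.0227) and 0 were lower. TP73, the p53 relative that E2F1 induces, stood at -0.98 ± 0.30 (adjusted p = 0.0502) and BBC3 (PUMA) at 0.62 (adjusted p = 0.206). PCNA, the replication clamp and also a p53 target, was the one G1/S gene with a positive log2 change (1.103 ± 0.36, adjusted p = 0.0686), and it was singled out after its value had been seen.

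The genes whose levels ran closest to a member were ranked by Pearson's r of log2 CPM over the 12 libraries, among 11440 genes. The libraries share the 4 treatments and the differences in mitochondrial share above, so r is given as a measure of likeness only. For E2F1 they were the DNA polymerase subunit POLD1 (0.994), the helicase subunit MCM3 (0.993) and the chromatin assembly factor CHAF1A (0.990). For E2F8 they were NEMP1 (0.993), ATAD2 (0.986) and the mitotic kinase MASTL (0.982). For RB1 they were TMEM245 (0.992), the Polycomb subunit SUZ12 (0.990) and SPCS3 (0.990), and for RBL2, at lower values, SKIC3 (0.962), CBR4 (0.937) and NHLRC3 (0.937). No gene stood among the nearest 3 of more than 1 of these members.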

How the data were processed

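The deposited values are estimated counts per gene, which the authors made with Salmon 1.10.1 on build GRCh38.p14, per the submitters' processing notes. The notes name, besides, STAR 2.7.9a, SAMtools 1.17, cutadapt 3.4, Trim Galore 0.6.7 and FastQC 0.12.1. Per the labels' protocols the library kit was directional. Which annotation release, strand setting and read filters were used is not given in the sources used here. Values were rounded before testing (13.61% were not whole).

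TMM scaling was followed by the filterByExpr filter (at least 10 counts, 15 in total), leaving 18049 genes with at least 99.89% of counts. The test was the quasi-likelihood F test of edgeR 4.0.16 (with limma 3.58.1 in R 4.3.3), fitted to the 12 libraries together with a mean per group. P values were adjusted by Benjamini-Hochberg over all genes tested (threshold 0.05). Log2 changes are ± SE and levels are TMM-scaled CPM ± SD. The biological coefficient of variation had a median of 0.2142. On simulated data for the combination against DMSO (17760 genes), 51% of 2-fold and 94% of 4-fold changes were recovered, with 5 false calls. The changed genes were drawn only from those of higher mean count. The simulated counts held no differences between sets or in mitochondrial share. Recovery for the members themselves was not tested. Replicates differed by more than sampling noise (chi-square per gene 16.5 to 243.6). Ratios within libraries were compared with an exact permutation test.

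Groups came from sample titles. The members and lists were chosen with earlier results of these data known. Named are all members, up to 4 genes per list with the smallest adjusted p in the combination against DMSO, and the 3 genes of at least 5 CPM most correlated with E2F1, E2F8, RB1 and RBL2. Some genes that this rule names are not reported here. Positions and promoters are from RefSeq, lengths and overlaps from GENCODE 29. Alternatives were DESeq2 size factors, total counts, other count filters, DESeq2 1.42.0, limma-voom, only the groups compared, the set number as a block, mitochondrial share as a covariate, and each library left out.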

Additional observations from a re-analysis of the deposited data

How the results depend on the processing

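Main counts were 1, 12, 2370, 1699, 634 and 14 genes and 0, 0, 4, 2, 0 and 0 members for 5-Ph-IAA against DMSO, ATRi against DMSO, the combination against DMSO, against 5-Ph-IAA and against ATRi, and the interaction. DESeq2 called 18, 102, 2557, 1461 and 212 genes (all but the combination against DMSO) and 4 members against 5-Ph-IAA. Limma-voom called 0 genes with 5-Ph-IAA and 9 for the interaction. It called 1 and 0 members for the combination against DMSO and 5-Ph-IAA, beside 2270 and 1584 genes. With limma-voom, E2F1, E2F2 and E2F8 had adjusted p values of 0.0728, 0.0567 and 0.0634 against DMSO. With mitochondrial share as a covariate, 6, 122, 6449, 5507, 3188 and 278 genes were called, with 5 members against 5-Ph-IAA and 2 against ATRi, 1 of them E2F7 (higher, 0.73, adjusted p = 0.028). Without a filter, 0, 28 and 47 genes were called for 5-Ph-IAA, ATRi and the interaction. The combination against 5-Ph-IAA then gave 4 members, beside 1352 genes. Total counts gave 0 genes with 5-Ph-IAA. Fitting only the groups compared gave 0, 0, 1033 and 970 genes for 5-Ph-IAA, ATRi and the combination against 5-Ph-IAA and ATRi, and 1 member against ATRi; E2F1 lost its call against DMSO (adjusted p = 0.0551), and the interaction could not be run. RBL1 passed against DMSO with DESeq2 (adjusted p = 0.00877), without a filter (0.00787) and with a stricter one (0.0472). Deviations from the group mean correlated at -0.094 to 0.756 for same-set libraries (median 0.378) and at -0.738 to 0.591 for others (median -0.205). Of 12 libraries, 8 correlated best with their own set, and 13 of 18 same-set pairs exceeded 0.1. The sets thus shared variation in part. Because not all pairs did, the main test left the set numbers out and the block was run as an alternative. With the replicate block, 100, 4569, 3546, 1980 and 215 genes were called (all but 5-Ph-IAA), and 5, 4, 2 and 1 members for the combination against DMSO, 5-Ph-IAA and ATRi and for the interaction (E2F2, -1.23, adjusted p = 0.0498). Those called against ATRi were E2F1 and E2F2 (adjusted p = 0.0237 and 0.0041). Leaving out each library gave 0 to 0, 3 to 11, 1236 to 2376, 777 to 1334, 134 to 220 and 2 to 15 genes in the same order, and 0 to 5 and 0 to 2 members for the combination against DMSO and 5-Ph-IAA.

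Signs turned only for members that did not pass. With the mitochondrial covariate these were E2F1 (0.070) and RB1 (0.013) for 5-Ph-IAA, RB1 for ATRi (0.083) and the interaction (0.079), E2F7 (0.43, 0.44) and RB1 (0.17, 0.16) for the combination against DMSO and 5-Ph-IAA, and RB1 (0.092) against ATRi. With total counts they were E2F3 (-0.011) and E2F4 (-0.021) against DMSO and E2F4 (-0.018) against 5-Ph-IAA. Without a filter they were E2F4 (-0.012 and -0.0071), and with limma-voom (0.047) or the block (0.048) E2F7 against 5-Ph-IAA. Leaving out 1 library turned the sign of these log2 changes, given with their range: E2F1 (-0.54 to 0.36), E2F2 (-0.38 to 0.56), E2F3 (-0.014 to 0.27), E2F4 (-0.047 to 0.015), E2F7 (-0.73 to 0.40), E2F8 (-0.82 to 0.14), RB1 (-0.49 to 0.32) and RBL1 (-0.83 to 0.21) for 5-Ph-IAA. The same held of E2F3 (-0.15 to 0.056), E2F5 (-0.16 to 0.050) and RB1 (-0.35 to 0.26) for ATRi, E2F3 (-0.075 to 0.13), E2F4 (-0.032 to 0.049), E2F7 (-0.53 to 0.32) and RB1 (-0.49 to 0.12) for the combination against DMSO. It also held of E2F3 (-0.25 to 0.026), E2F4 (-0.014 to 0.061), E2F5 (-0.13 to 0.044), E2F7 (-0.31 to 0.54) and RB1 (-0.40 to 0.26) against 5-Ph-IAA, RB1 (-0.32 to 0.0089) against ATRi, and of E2F3 (-0.20 to 0.086), E2F4 (-0.068 to 0.0065), E2F5 (-0.086 to 0.12), E2F7 (-0.026 to 1.097), E2F8 (-0.83 to 0.13) and RB1 (-0.46 to 0.35) for the interaction. The causes were not tested.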
